A study of Arabidopsis thaliana with 6 samples.

Results

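The UDP-glycosyltransferases of Arabidopsis thaliana were followed in young and old siliques, the seed pods of the plant. Members were all probe sets that the platform annotation pairs with a single gene whose symbol begins with UGT and a digit. UGT78D1, UGT78D2, UGT74B1 and UGT76B1 were left out. This gave 43 probe sets for 43 genes among 22746 probe sets that are not controls, of which 13513 name 1 gene. All 43 matched the RefSeq gene table by gene number under the same symbol, and they fall into 11 groups by UGT number, from UGT71 to UGT88. The rule itself uses names alone and no measured value, but it was set with earlier results of these data known.

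The series was made to find transcripts that change as siliques senesce, on 6 Affymetrix ATH1 arrays of total RNA, 3 of young pods and 3 of old pods. All plants were of accession Col-1 in a glasshouse under continuous light, on compost, and no mutant, transgene or treatment is named. Every sample carries the same tissue label, for mature and senescing siliques, and the same stage label, when the first silique has shattered, so young and old are told apart by the titles alone. The sources used here do not give the criterion for pod age, and nothing says that replicates came from separate plants, so p-values measure only the spread between these samples.

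These enzymes move a sugar from a UDP-sugar onto small molecules, such as hormones, phenolic acids, flavonols and sterols. Sugar addition generally makes the acceptor more soluble and ready for storage in the vacuole, and for several hormones it removes activity. Plants carry large families of such genes, many of them in tandem on the chromosome, and the numbers in the names mark groups of related sequence.

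Values are MAS5 signals, on a linear scale that the authors had set to a common trimmed mean on each array. A signal above the 40th percentile of its own array is called above the percentile here, and 60% of probe sets lie above it on any array by construction. A member was tested when this held on at least 3 of the 6 arrays, and is called undetected when it held on none. Signals of different probe sets depend on the probes, so no member's level is set against another's.

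The replicate 1 arrays stood apart in their spiked hybridisation controls, whose mean log2 signal was 9.40 in young and 9.52 in old replicate 1 but 7.66 to 8.29 on the other 4. Values for replicate 1 and for replicates 2 and 3 are therefore given beside the results. Marker transcripts of several pod tissues also differed between the groups. Both seed coat markers fell: BAN from signals of 1289.1 to 2714.7 in young pods to between 8.2 and 46.8, and DELTA-VPE from 2281.8 to 3758.4 down to between 29.7 and 181.2. All 3 markers of photosynthetic tissue fell too: PSAE-1, PSAN and LHCB4.2 had log2 changes of -1.17, -2.22 and -1.95, while ADPG1 of the dehiscence zone rose from 45.1 to 102.2 up to between 901.1 and 1248.2. The embryo and endosperm marker PAP85 was at 14.9 to 25.9 in young pods, at 210.1 and 214.9 in old replicates 3 and 2, and at 3700.8 in old replicate 1. Only 1 of 2 listed dehiscence zone markers and 1 of 4 listed embryo and endosperm markers had a named probe set. Of the pollen markers 1 was measured and did not pass, and no root marker had a named probe set. The 3 reference genes PEX4, AT2G28390 and AT4G34270 did not pass, at log2 changes of -0.28, -0.42 and 0.52. Their groups did not overlap, as for 40.9% of all tested probe sets. In bulk tissue, fewer cells of a type and less RNA per cell cannot be told apart. The part of either in the UGT results was not tested. RNA quality did not separate the groups: the log2 ratio of 3 prime to 5 prime signals for GAPDH was 1.54 to 2.55 in young and 1.26 to 2.72 in old pods (exact permutation test, two-sided, p = 0.80). For the actin and ubiquitin controls the same exact permutation test gave p = 0.50 and p = 1.00, and the smallest p that 3 against 3 arrays allow is 0.10.

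Of the 43 members, 18 were tested, 6 were too dim to test and 19 were undetected. Thus 41.9% of the members were tested, against 62.8% of all probe sets that are not controls. On the single arrays, 15, 15 and 12 members were above the percentile in young replicates 1, 2 and 3, and 19, 18 and 20 in old replicates 1, 2 and 3. All 3 old arrays held more members above their own percentile than any young array. That percentile was a signal of 36.5, 32.5 and 33.7 in young replicates 1, 2 and 3. In old replicates 1, 2 and 3 it was 34.5, 25.2 and 24.3. Old replicates 2 and 3 thus had the lowest cutoffs, and the part of this in the counts was not tested.

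**Figure D1:**
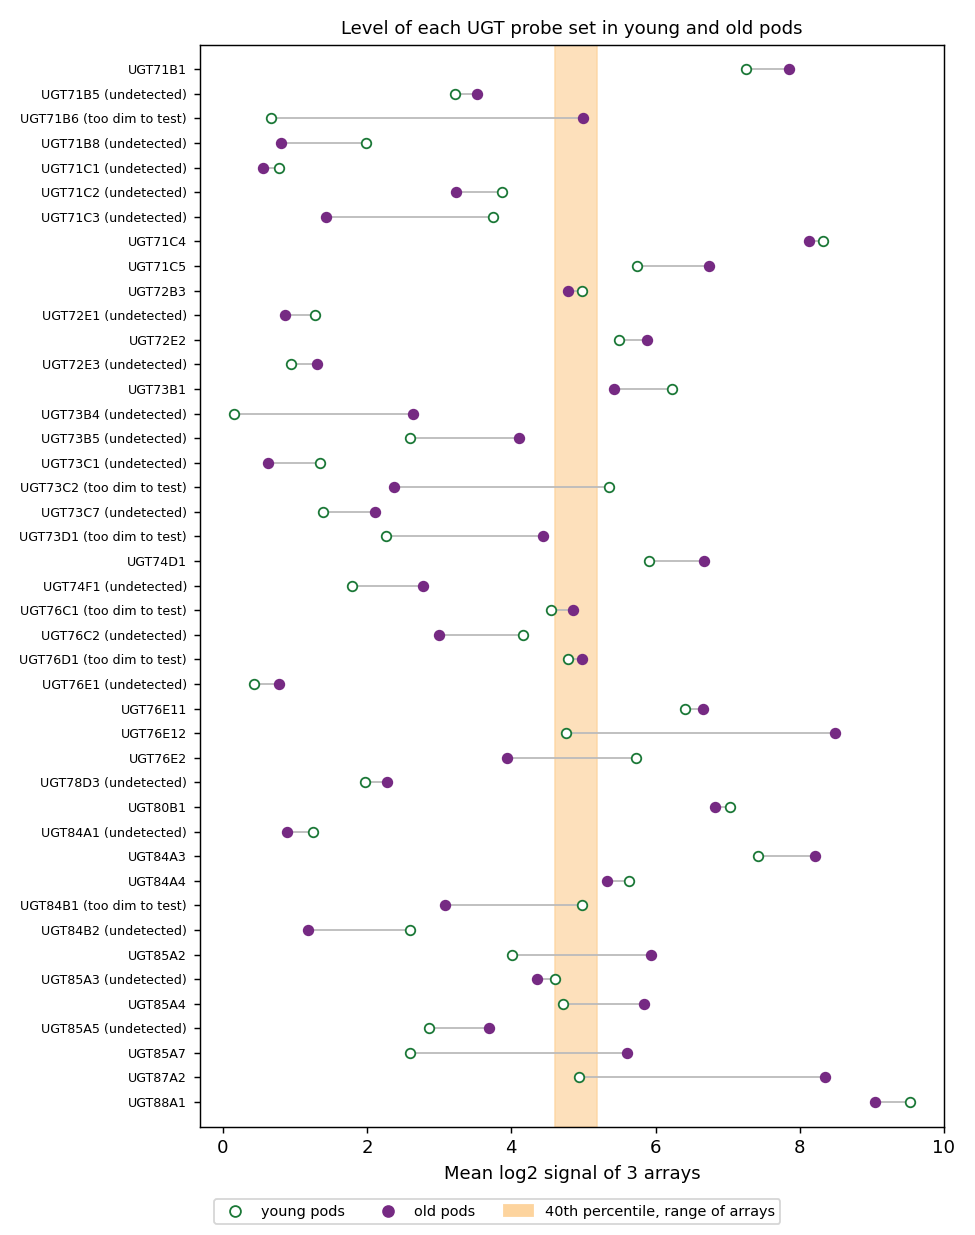
Mean log2 signal over 3 arrays (x axis) of each of the 43 members, in order of UGT number, for young pods (open circles) and old pods (filled circles); the band spans the 40th percentiles of the 6 arrays. Lines join the groups within a member; 19 members are marked undetected and 6 too dim to test.

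Among the tested members 5 rose in old pods, 1 fell and 12 did not pass. UGT87A2, UGT76E12, UGT85A7, UGT85A2 and UGT71C5 rose, and UGT73B1 fell. The test was limma over all 14277 tested probe sets, with an adjusted p under 0.05 as the threshold. The 5 rises are 27.8% of the tested members, against 9.68% of all tested probe sets, and the fall is 5.56% against 12.3%. For both directions together the shares were 33.3% and 22.0%. However, UGT87A2, UGT85A7 and UGT85A2 entered the test through their old arrays alone, so their count carries a difference that the filter itself asks for. Of the 15 members above the percentile in both groups on at least 1 array, 2 rose (13.3%), against 8.30% of all such probe sets. In this set 1 fell (6.67%), against 10.4%. UGT76E12, 1 of these 2 rises, was above the percentile on 1 young array and 3 old arrays. Its old arrays alone would thus also have met the filter.

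The median log2 change of the 18 tested members was 0.49, or 0.45 with members under the percentile in young pods at their bound, and that of the 15 was 0.26. Over all tested probe sets the median was -0.08. The signals of young and old pods did not overlap for 8 of the 18 members, which is 44.4% against 40.9% of all tested probe sets and so lies near the background. Old pods were higher in 7 of the 18 (38.9%), against 17.9% of all tested probe sets, and lower in 1 (5.56%), against 23.0%. Of these 7, UGT87A2, UGT85A7 and UGT85A2 had entered the test through their old arrays alone. UGT76E12 and UGT85A4, each above the percentile on 1 young array, would also have met the filter on their old arrays alone. The median SD within the young group was 0.35 for the members and 0.27 for all tested probe sets, and within the old group 0.25 and 0.31, all on the log2 scale.

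**Figure D2:**
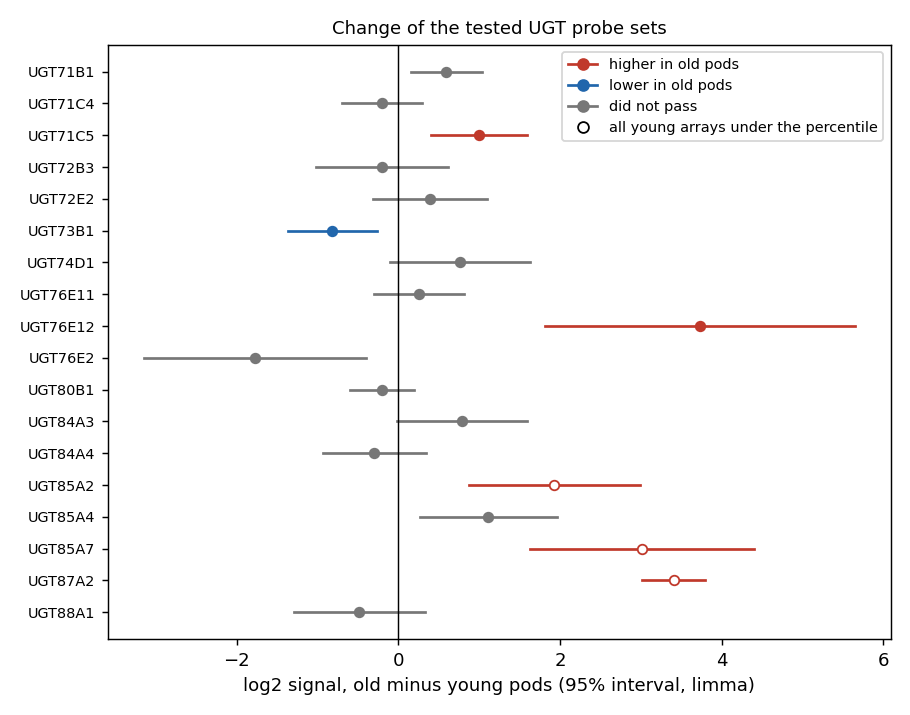
Difference in log2 signal between old and young pods (x axis, points) with its 95% interval from limma (lines) for the 18 tested members; red marks the 5 that rose, blue the 1 that fell and grey the 12 that did not pass. Open points had all young arrays under the percentile, so their place on the axis is not a measured fold.

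UGT87A2 had the smallest standard error of the 6, at 0.17 on the log2 scale. This gene is known to affect flowering time through the floral repressor FLC. Its signal was 30.3, 30.6 and 31.2 in young replicates 1, 2 and 3, and 346.1, 322.5 and 309.4 in old replicates 1, 2 and 3. The young arrays lay within 1 signal unit of each other, all just under the percentile, and every old array lay far above them. UGT87A2 was at least 9.52-fold higher in old pods (n = 3 arrays per group, limma adjusted p = 0.000103). Leaving out any 1 array kept this bound between 9.24 and 9.84. The log2 change was 3.51 in replicate 1 and 3.35 in replicates 2 and 3, and the call held under all 16 alternatives, with an adjusted p of at most 0.00323.

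The UGT76 group held a rise, a member that overlapped and a member that was lower. UGT76E12, whose enzyme takes flavonols in vitro, had signals of 102.4, 29.0 and 6.7 in young replicates 1, 2 and 3, against 321.3, 419.0 and 348.3 in old pods. Only young replicate 1 was above the percentile, and the old arrays lay close together. The change was 13.3-fold (log2 3.73, SE 0.83, limma adjusted p = 0.0166), on a young SD of 1.97. It was 1.65 on the log2 scale in replicate 1 and 4.78 in replicates 2 and 3. The fold was 25.9 without young replicate 1 and 6.62 without young replicate 3, and 2.90 on the log2 scale with low signals raised to the percentile. The adjusted p rose to 0.0506 without young replicate 2, and to 0.0674 and 0.0541 without old replicates 2 and 3, which ended the call.

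UGT76E11, which has 1 gene between it and UGT76E12 in the RefSeq order, was measured on all 6 arrays. Its signals were 98.3, 88.0 and 70.4 in young pods and 80.0, 102.5 and 127.4 in old pods, so the groups overlapped. The log2 change was 0.26 (95% interval -0.29 to 0.81, limma adjusted p = 0.481). Whether the neighbours differ in their change was not tested.

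UGT76E2 was lower in old pods without passing. Its signals were 82.0, 52.7 and 34.1 in young replicates 1, 2 and 3, and 34.8, 8.1 and 13.0 in old pods, where only replicate 1 was above the percentile. Old replicate 1 lay just above young replicate 3, and the other old arrays lay below every young array. The log2 change was -1.78 (SE 0.59, limma adjusted p = 0.0678). With the replicate number as a block it passed (adjusted p = 0.0302), as it did in replicates 2 and 3, at -2.05 (adjusted p = 0.0143), and without old replicate 1, at -2.36 (adjusted p = 0.00977). UGT76E1, next to it on the chromosome and known to glucosylate oxidised jasmonate, was undetected, with no signal above 3.1.

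In the UGT85 group, 2 of the 3 tested members rose and the third was higher without passing. UGT85A7 had signals of 10.9, 4.0 and 5.1 in young pods and 58.4, 60.9 and 32.8 in old replicates 1, 2 and 3. All young arrays were far under the percentile, and old replicate 3 was the lowest of the old arrays. UGT85A7 was at least 1.43-fold higher in old pods (limma adjusted p = 0.0108). Without old replicate 2 the bound was 1.28 and the call ended (adjusted p = 0.0774). It also ended with low signals raised to the percentile (adjusted p = 0.209), so the call rests on signals that lie under that level.

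UGT85A2 had signals of 10.7, 32.1 and 12.1 in young pods and 67.8, 53.5 and 63.4 in old pods. Young replicate 2 lay just under the percentile and the other young arrays well below it. UGT85A2 was at least 1.79-fold higher in old pods (limma adjusted p = 0.0216), with bounds of 1.70 to 1.92 when 1 array was left out. The call was lost without young replicate 3 (adjusted p = 0.0621) and without old replicates 2 and 3 (0.0680 and 0.0732). It also ended with arrays scaled on the hybridisation controls (adjusted p = 0.330).

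UGT85A4 was at 27.1, 33.6 and 20.2 in young pods and at 87.6, 51.8 and 41.1 in old pods. The groups did not overlap, and the old replicates spread more than the young ones. The log2 change was 1.11 (SE 0.37, 95% interval 0.27 to 1.96), with 1.69 in replicate 1 and 0.82 in replicates 2 and 3. The limma adjusted p = 0.0642 missed the threshold, and it was 0.048 with the replicate number as a block. After quantile normalization and after median centring the adjusted p was 0.0226 and 0.0474.

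**Figure D3:**
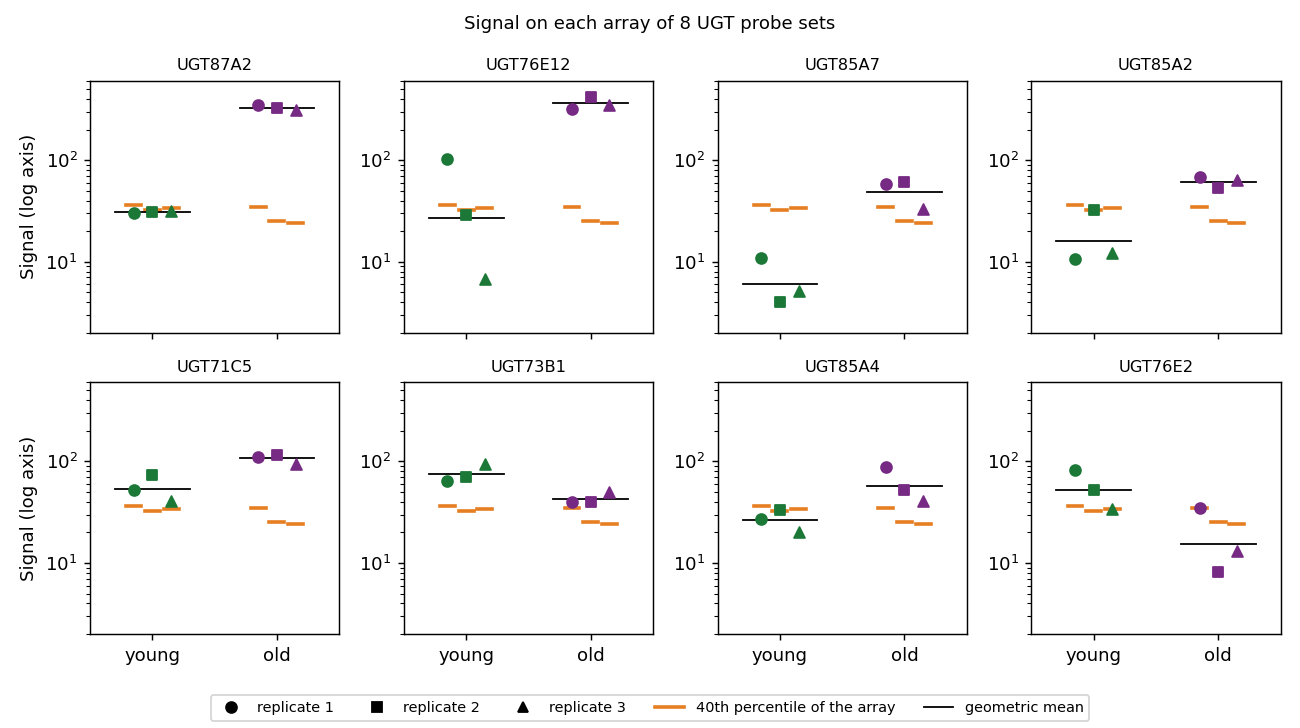
Signal on each array (log axis) of the 6 members that passed and of UGT85A4 and UGT76E2, whose calls changed with the replicate number as a block; marker shapes give the replicate, black lines the geometric means and orange ticks each array's 40th percentile. The 3 young arrays of UGT87A2 sit at 30.3 to 31.2, whereas those of UGT76E12 run from 6.7 to 102.4.

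The UGT85A7, UGT85A2, UGT85A5 and UGT85A3 genes follow one another with no other protein-coding gene between them. The first 2 of this run rose, and UGT85A5 and UGT85A3 were undetected, with highest signals of 21.1 and 30.0. In all, 29 members lie in 12 such runs with at most 5 genes between neighbours. Members of a run are often close in sequence. All 43 probe sets carry the plain _at suffix, which Affymetrix gives to sets designed for a single transcript, and cross-hybridisation between neighbours was not tested.

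The UGT71 group had 9 members, of which 3 were tested and 1 rose. UGT71C5, whose enzyme joins glucose to abscisic acid, had signals of 52.2, 73.0 and 40.6 in young replicates 1, 2 and 3, and 111.6, 115.9 and 95.3 in old pods. Every array was above the percentile, and the lowest old signal exceeded the highest young one. The change was 2.00-fold (log2 1.00, SE 0.26, limma adjusted p = 0.0282), with 1.10 in replicate 1 and 0.95 in replicates 2 and 3. The call ended in replicates 2 and 3 alone (adjusted p = 0.0617), and it ended when young replicates 1 and 3 or old replicates 2 and 3 were left out in turn (adjusted p 0.0585 to 0.101). Scaling on the hybridisation controls ended it as well (adjusted p = 1.00), at a log2 change of 0.98.

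UGT71C4, the direct neighbour of UGT71C5, was measured on all arrays, with signals of 273.2 to 419.6 in young pods and 251.3 to 294.2 in old pods. The ranges overlapped, and the log2 change was -0.20 (95% interval -0.70 to 0.30, limma adjusted p = 0.543). UGT71C3, on its other side, was undetected.

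UGT71B1 was at 158.5, 158.0 and 143.6 in young pods and at 198.6, 222.7 and 279.5 in old pods. The groups did not overlap, and the change was 1.51-fold (log2 0.59, SE 0.19, limma adjusted p = 0.0603). It passed after median centring (adjusted p = 0.042), in replicates 2 and 3 (adjusted p = 0.0492) and without old replicate 1 (adjusted p = 0.0412).

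UGT71B6, another enzyme that glucosylates abscisic acid, was too dim to test. Its signals were 0.9, 4.4 and 1.0 in young pods and 26.7, 36.5 and 33.4 in old pods, of which the last 2 were above the percentile. All old signals exceeded all young ones, but the mean of the old group did not exceed the young arrays' percentile, so no fold is given. When no filter was used UGT71B6 passed as higher in old pods (limma adjusted p = 0.00626), on young signals far under the percentile. The remaining UGT71 members, UGT71B5, UGT71B8, UGT71C1 and UGT71C2, were undetected.

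UGT73B1 was the 1 tested member of the UGT73 group and the 1 member that fell. Its signals were 64.2, 70.4 and 94.6 in young replicates 1, 2 and 3, and 40.1, 39.7 and 49.4 in old pods. All arrays were above the percentile and the groups did not overlap. The fall was 1.76-fold (log2 -0.81, SE 0.24, limma adjusted p = 0.0461), with -0.68 in replicate 1 and -0.88 in replicates 2 and 3. This call lay close to the threshold and ended when any 1 of the 6 arrays was left out (adjusted p 0.0522 to 0.167). It also ended after quantile normalization (adjusted p = 0.127), median centring (0.067) and scaling on the hybridisation controls (1.00), and with no filter (0.0751) or a filter at the 20th percentile (0.0591).

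The other 6 UGT73 members were dim or undetected. UGT73C2 was at 55.8, 46.1 and 26.3 in young replicates 1, 2 and 3, where 2 arrays were above the percentile. In old pods it was at 19.2, 1.2 and 6.1, with no array above the percentile. All old signals lay under all young ones, and UGT73C2 was at least 1.47-fold lower in old pods. With no filter it did not pass (limma adjusted p = 0.0707). UGT73D1 was above the percentile in old replicate 3 alone, with 4.4, 3.8 and 6.6 in young pods and 15.9, 24.8 and 26.1 in old pods. UGT73B4, UGT73B5, UGT73C1 and UGT73C7 were undetected. With no filter UGT73D1 and UGT73B4 passed as higher in old pods (limma adjusted p = 0.0277 and 0.0395), although no UGT73B4 signal exceeded 8.7.

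Members with auxin as a known acceptor did not pass or were dim. UGT74D1, which takes auxin and its oxidised form, was at 74.9, 61.7 and 47.0 in young replicates 1, 2 and 3 and at 64.2, 93.6 and 175.7 in old replicates 1, 2 and 3. The old arrays spread over a wider range than the young ones, and old replicate 1 lay among the young arrays. The log2 change was 0.76 (95% interval -0.11 to 1.63, limma adjusted p = 0.189). It was -0.22 in replicate 1 and 1.25 in replicates 2 and 3. UGT74D1 passed in those replicates (adjusted p = 0.0288) and in the fit without old replicate 1 (adjusted p = 0.0479).

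UGT84B1, which glucosylates indole-3-acetic acid, was above the percentile in young replicate 2 alone. Its signals were 32.7, 49.1 and 19.5 in young pods and 12.2, 10.1 and 4.9 in old pods. All old signals lay under all young ones and under the percentile, and UGT84B1 was too dim to test. Its bound was at least 1.14-fold lower in old pods, and with no filter UGT84B1 did not pass (limma adjusted p = 0.0563). UGT84B2 beside it was undetected.

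Of the UGT84A members, which make glucose esters of hydroxycinnamic acids, 2 were tested and neither passed. UGT84A3 was at 279.5, 177.0 and 102.6 in young replicates 1, 2 and 3 and at 271.7, 268.6 and 359.6 in old pods. Young replicate 1 reached the level of the old arrays. The log2 change was 0.79 (95% interval -0.02 to 1.60, limma adjusted p = 0.147), with -0.04 in replicate 1 and 1.21 in replicates 2 and 3. UGT84A3 passed in those replicates (adjusted p = 0.0255) and in the fit without young replicate 1 (adjusted p = 0.0339). UGT84A4 was at 41.8 to 60.9 in young pods and 34.6 to 50.6 in old pods, with a log2 change of -0.30 (95% interval -0.94 to 0.34). UGT84A1 was undetected.

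**Figure D4:**
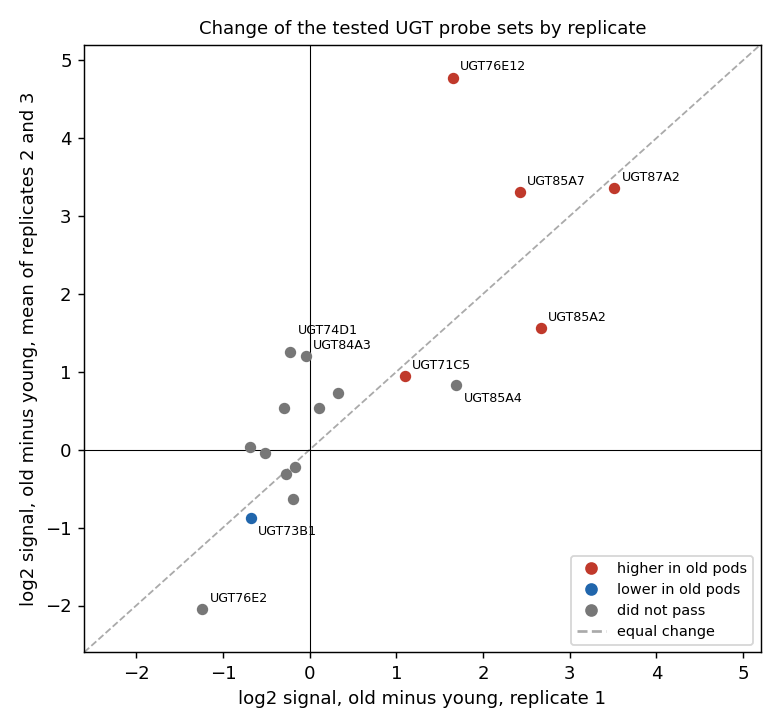
Difference in log2 signal between old and young pods in replicate 1 (x axis) against the mean difference in replicates 2 and 3 (y axis) for the 18 tested members; the dashed line marks equal change. The 6 members that passed had groups that did not overlap, which by itself places them on the same side of 0 on both axes. UGT74D1 and UGT84A3 are at -0.22 and -0.04 in replicate 1 and at 1.25 and 1.21 in replicates 2 and 3.

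In replicates 2 and 3 alone, 9 of the 18 members passed, 7 higher and 2 lower. Over all 14277 tested probe sets the same fit called 1662 higher and 2274 lower. UGT71C5 was the 1 earlier call not among the 9 members.

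Members with cytokinin or salicylate as acceptors were dim or undetected. UGT76C1, a cytokinin N-glucosyltransferase, was above the percentile on 2 old arrays, with signals of 15.1 to 34.3 in young and 24.0 to 37.3 in old pods. UGT76C2, with the same activity, and UGT74F1, a salicylate glucosyltransferase, were undetected. UGT76D1, which takes dihydroxybenzoic acids, was above the percentile in replicate 1 of each group, at 41.3 in young and 68.1 in old pods, against 21.2 to 23.3 on the other 4 arrays.

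Among the UGT72 members, UGT72E2, which glucosylates monolignols, the building blocks of lignin, was at 61.3, 31.4 and 47.5 in young and 66.3, 48.3 and 64.5 in old pods. The groups overlapped, and the log2 change was 0.39 (95% interval -0.31 to 1.10, limma adjusted p = 0.400). UGT72E1 and UGT72E3, its relatives with monolignol or related aldehyde acceptors, were undetected, with no signal above 4.2. UGT72B3 lay around the percentile, at 28.7 to 35.2 in young and 19.5 to 36.9 in old pods (log2 -0.20, 95% interval -1.02 to 0.62).

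UGT80B1, a sterol glucosyltransferase that acts in the seed coat, was at 136.2, 120.3 and 136.0 in young pods and at 121.5, 109.9 and 109.1 in old pods. Its groups overlapped by a small margin, and the log2 change was -0.20 (95% interval -0.60 to 0.19, limma adjusted p = 0.435), beside log2 changes of -6.81 and -5.51 in the seed coat markers BAN and DELTA-VPE. UGT88A1 was at 442.3, 991.6 and 927.0 in young replicates 1, 2 and 3 and at 387.7, 659.5 and 582.2 in old pods. In both groups replicate 1 was the lowest, and the log2 change was -0.48 (95% interval -1.29 to 0.33, limma adjusted p = 0.367). UGT78D3, a flavonol arabinosyltransferase, was undetected.

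The 19 undetected members had signals from 0.7 to 34.0, and 9 of them had no signal as high as 10. Their signals lie under the level used here for detection in both groups, so no fold is given for them.

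Of 27 genes that supply UDP-sugars, the donors of these reactions, 1 had a named probe set. This was USP, a UDP-sugar pyrophosphorylase, at 180.3, 164.6 and 193.7 in young pods and 85.8, 77.9 and 120.4 in old pods. All old signals lay under all young ones, and USP fell 1.93-fold (log2 -0.95, SE 0.22, limma adjusted p = 0.0184). The other 26 genes of this list were not assessed, as no probe set named them alone.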

How the data were processed

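RNA of 3 young and 3 old pod samples was measured on 1-colour arrays. The deposited intensities hold 1 linear signal for each probe set. The submitters' processing notes name MAS5, with no version, and no detection calls were used here. With 2% trimmed at both ends, every array had a mean of 100.0, so a change shared by most transcripts would not be seen. Array number limits the precision.

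Of 22810 probe sets, 64 controls were left out. Signals under 0.1 were set to 0.1 and taken as log2. Being above the 40th percentile of the array on 3 or more of the 6 arrays was the condition for a test, which kept 14277. The groups were compared by limma 3.58.1 (R 4.3.3; lmFit and eBayes with a variance trend, arrays not normalized further), two-sided, with Benjamini-Hochberg adjustment over all tested probe sets and a threshold of 0.05. The method was tested on simulated data. Where all arrays of a group were under the percentile, the fold is a bound ("at least"): signals of the dim group were raised to their array's percentile, and the difference of the mean log2 signals taken. The adjusted p printed beside a bound is that of the main fit, on signals that were not raised, so it does not test the bound.

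Every member is accounted for. Those that passed are given on every array, with the 5 of smallest adjusted p and the 5 brightest that did not pass and those whose call the replicate block changed. Members and lists were chosen with earlier results of these data known. Deviations from group means correlated at 0.286, 0.113 and 0.119 between young and old arrays of replicate number 1, 2 and 3. All exceeded 0.1, the cutoff used here for running a fit with the number as a block as an alternative. The sample titles do not say that the numbers pair arrays, and pairing was not tested. The main fit did not use the number, and the block changed the calls of UGT85A4 and UGT76E2. Arrays of 1 group correlated at 0.858 to 0.951, and no arrays were identical. Gene names were checked against TAIR10.1. A planned description of protein and promoter sequences was not made.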

Additional observations from a re-analysis of the deposited data

How the results depend on the processing

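In all, 16 alternatives were run, 6 of which left out 1 array. Direction was followed for the members that passed, and for those of smallest adjusted p or brightest signal that did not. None of these changed direction. UGT72B3, which was not among them, went from a log2 change of -0.20 to 0.04 in replicates 2 and 3. UGT87A2 alone among the 6 members that passed kept its call in all 16. The 5 higher UGT probe sets of 18 tested became 8 of 43 with no filter on dim probe sets, beside 1328 of all 22746. They became 3 of 9 with a filter at the 60th percentile, beside 1264 of 9689. At the 20th percentile they were 7 of 30, beside 1389 of 18830. With low signals raised to the percentile, quantile normalization and median centring they were 4, 6 and 7, beside 1341, 1466 and 1644 of 14277. They were 3 with scaling on the hybridisation controls, and 1 to 7 when 1 array was left out. The 1 lower UGT probe set became 0 with no filter, quantile normalization, median centring, scaling on the hybridisation controls or the 60th percentile. It became 2 with the replicate block and 2 in replicates 2 and 3, and 0 to 1 when 1 array was left out. Over all probe sets the lower count was 1779 of 22746 with no filter and 1318 of 9689 at the 60th percentile. It was 1547, 1513 and 1964 of 14277 with quantile normalization, median centring and the replicate block. At the 60th percentile 9 members were tested. UGT73B1, UGT85A2 and UGT85A7 were not among them, and the 3 called members still tested all kept their calls. Without old replicate 2, old replicate 3 or young replicate 3 the higher UGT count was 1, 2 and 3, beside 720, 855 and 928 over all probe sets. Over all probe sets, 1382 higher and 1763 lower became 256 and 372 with scaling on the hybridisation controls, and 720 to 1473 and 932 to 2129 when 1 array was left out. In replicates 2 and 3 alone the counts were 1662 higher and 2274 lower. The causes of these changes in count were not tested. The hybridisation controls set the replicate 1 arrays apart within each group. The USP fall, the 1 call of the UDP-sugar list, became 0 with that scaling, and 0 to 1 when 1 array was left out (0 without young replicates 2 and 3, each in turn, and without old replicate 2). The replicate block changed no call of a UGT member other than UGT85A4 and UGT76E2. Signals near background limit the 25 members that were not tested.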

Other observations

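Several family genes are measured by probe sets outside the naming rule. The probe set shared by UGT71D1 and AT2G29710 was at 44.6, 74.8 and 93.4 in young replicates 1, 2 and 3 and at 8.1, 19.9 and 15.7 in old pods, where all arrays were under the percentile. It was at least 2.45-fold lower in old pods (n = 3 arrays per group), and the signal cannot be assigned to either gene. Its limma adjusted p = 0.0105 is for signals that were not raised to the percentile. The probe set shared by UGT73B2 and UGT73B3 was at 166.7, 31.9 and 44.5 in young pods and at 120.6, 97.2 and 152.5 in old pods, so the groups overlapped, and it did not pass (log2 0.97, SE 0.56, limma adjusted p = 0.257). The probe set shared by UGT89B1 and AT1G73885 was at 95.9 to 136.8 in young and 121.9 to 189.3 in old pods and did not pass (log2 0.37, SE 0.25, limma adjusted p = 0.314).

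The annotation gives 4 further family genes under other names. GT72B1, which RefSeq also lists as UGT72B1 and which takes xenobiotic phenols and monolignols, was at 655.5, 439.9 and 212.6 in young replicates 1, 2 and 3 and at 374.0, 309.9 and 529.7 in old pods. The groups overlapped throughout, with a log2 change of 0.00 (SE 0.41). The sterol glucosyltransferase gene SGT, also listed as UGT80A2, was at 129.9 to 168.9 in young and 107.6 to 156.2 in old pods and did not pass (log2 -0.16, SE 0.21). UF3GT, also listed as UGT79B1 and acting on anthocyanins, was above the percentile on 1 young array, and AT5G54010, also listed as UGT79B6, on none.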
